A study of Mus musculus with 4 samples.

Results

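The 3 chemokine genes *Cxcl12*, *Cxcl14* and *Cxcl16* and the 3 receptor genes *Cxcr4*, *Ackr3* and *Cxcr6* were followed across the cell types of mouse fracture callus. They were taken by symbol, 6 of the 32285 genes in the tables, of which 27265 had at least 1 UMI in the cells kept. All 6 genes were detected. A UMI (unique molecular identifier) marks 1 captured mRNA molecule, so the values are counts of molecules and not of reads.

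The study asked how systemic inflammation changes the cells of a healing fracture. Callus was collected from C57BL/6J wild-type mice, 3 months old, at 4 and 7 days post fracture (dpf). RA mice had received injections of K/BxN serum, which transfers an antibody-driven arthritis, and control mice had received vehicle. The 4 libraries were control_4d, RA_4d, control_7d and RA_7d. Each library was 1 pool of calluses, whose size the design text and the methods give differently. Per the study's methods the mice were male, the fracture was in the tibia, serum was first given on the day of fracture and PBS was the vehicle. Tissue was scraped along the periosteal surface and digested with collagenase before capture, so cells that do not survive digestion were not sampled.

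Chemokines are small secreted proteins that direct cell migration through seven-pass membrane receptors. CXCL12, also called SDF-1, is made by stromal and endothelial cells and signals through CXCR4, which retains and recruits haematopoietic cells and guides vessel growth. ACKR3, formerly CXCR7, binds CXCL12 as well, but takes it up and removes it instead of signalling through G proteins. CXCL14 is a chemokine of epithelium and stroma whose signalling receptor is not settled. CXCL16 is made as a membrane-bound protein that can be shed, and CXCR6, found on T cells and innate lymphocytes, is its receptor.

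In GENCODE M21 on GRCm38, *Cxcl12* lies on chromosome 6 from 117168535 to 117181367 on the plus strand, and *Cxcl14* on chromosome 13 from 56288643 to 56296551 on the minus strand. *Cxcl16* lies on chromosome 11 from 70453983 to 70459984 on the minus strand. *Cxcr4* and *Ackr3* are both on chromosome 1, *Cxcr4* from 128588199 to 128592293 on the minus strand and *Ackr3* from 90203980 to 90216751 on the plus strand. *Cxcr6* lies on chromosome 9 from 123806475 to 123811760 on the plus strand.

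The promoters of *Cxcl12* and of its receptors *Ackr3* and *Cxcr4* are shown because the ligand and *Ackr3* had like profiles over the callus clusters while *Cxcr4* lay in other cells. Each is the 250 bases before the RefSeq start on GRCm38.p6, read 5′ to 3′ on the gene's strand, at chr6:117168285-117168534 (plus), chr1:90203730-90203979 (plus) and chr1:128592300-128592549 (minus). Capitals mark matches, on either strand, to the TATA box, searched as TATAAA, which helps to place the start of transcription. They also mark those to the GC box, searched by the letters GGGCGG, which SP family factors bind.
Cxcl12: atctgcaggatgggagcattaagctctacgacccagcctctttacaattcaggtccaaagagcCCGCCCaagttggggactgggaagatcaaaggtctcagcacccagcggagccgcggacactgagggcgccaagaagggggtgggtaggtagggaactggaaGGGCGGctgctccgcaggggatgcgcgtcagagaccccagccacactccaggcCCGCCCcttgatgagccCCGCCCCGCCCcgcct
Ackr3: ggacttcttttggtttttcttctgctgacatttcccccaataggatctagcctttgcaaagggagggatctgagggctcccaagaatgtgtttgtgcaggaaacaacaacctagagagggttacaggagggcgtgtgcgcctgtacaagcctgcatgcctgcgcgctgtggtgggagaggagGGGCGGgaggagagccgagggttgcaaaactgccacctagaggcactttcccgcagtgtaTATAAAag
Cxcr4: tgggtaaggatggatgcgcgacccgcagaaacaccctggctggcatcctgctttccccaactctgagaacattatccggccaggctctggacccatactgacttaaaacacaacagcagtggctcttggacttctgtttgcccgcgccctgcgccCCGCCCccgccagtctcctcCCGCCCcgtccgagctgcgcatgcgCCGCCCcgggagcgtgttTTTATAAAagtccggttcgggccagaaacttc

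The *Cxcl12* window held 5 GC boxes, of which the 2 nearest the start overlap, and no TATA box. The *Ackr3* window held 1 GC box and 1 TATA box, and the *Cxcr4* window held 3 GC boxes and a TATA box that reads on both strands as overlapping matches. Relative to the start, the TATA box match began at -8 in *Ackr3*, and the matches in *Cxcr4* began at -30 and -32. Of 32851 RefSeq promoter windows of this length, 32.7% held a GC box and 12.4% a TATA box. The core of the hypoxia response element, ACGTG, was searched as well, is held by 16.6% of windows and matched none of the 3. Of the 6 genes, 5 had an entry in the promoter table, all but *Cxcl16*, and the windows of *Cxcl14* and *Cxcr6* held no match.

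The 4 libraries gave 25479 cells after filtering, 4110 to 8223 in each, with median depths of 16093.5 to 17631.5 UMIs per cell. Clusters were made without the 6 genes among the variable genes and named from markers, which gave 26 classes beside 1 cluster of doublets. For 1 marker of each lineage, *Prrx1* was at 572.4 CPM (counts scaled to the summed UMIs of the cells) in the 9165 mesenchymal cells. *Cdh5* was at 1016 CPM in the 3248 endothelial cells, *Cd68* at 440.6 CPM in the 10012 myeloid cells and *Nkg7* at 594.4 CPM in the 711 lymphoid cells. *Prrx1* was at 6.61 CPM or less in the other 3 of these lineages, and *Cdh5* at 7.22 CPM or less. Not all markers were as clean. *Cd68* was at 43.4 CPM in lymphoid cells, and *Tyrobp*, another myeloid marker, at 893.5 CPM there against 1720 CPM in myeloid cells. *Cd79a*, a lymphoid marker, was lower in lymphoid cells (3.30 CPM) than in endothelial (6.63 CPM) and mesenchymal cells (3.95 CPM), and was at 2.55 CPM in myeloid cells. Pairs of libraries shared 5 to 15 barcodes. Each condition is 1 library from pooled callus, so condition, pool and library preparation cannot be told apart, no test between conditions was made, and all intervals (95%, exact) cover counting error only. Cells, clusters and classes are not replicates.

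Most UMIs of *Cxcl12*, *Ackr3* and *Cxcl14* lay in mesenchymal cells, those of *Cxcr4* and *Cxcl16* in myeloid cells and those of *Cxcr6* in lymphoid cells. Mesenchymal cells held 84.8% of all *Cxcl12* UMIs, 89.9% of *Ackr3* UMIs and 93.3% of *Cxcl14* UMIs. They were 18.2% to 50.1% of the cells of a library, and endothelial cells 11.6% to 14.8%. Endothelial cells held most of the remaining *Cxcl12*, 11.5% over the 4 libraries. Their part was 24.1% in control_4d, 7.42% in RA_4d, 14.2% in control_7d and 7.80% in RA_7d. The endothelial part of *Cxcl12* was therefore lower in the RA library than in the control library at both time points. By level, *Cxcl12* was not highest in mesenchymal cells in control_7d, at 286.4 CPM against 295.0 CPM in endothelial cells.

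Myeloid cells held 83.5% of *Cxcr4* UMIs and 85.2% of *Cxcl16* UMIs. For *Cxcr4* their part was 90.2% in control_4d, 89.9% in RA_4d, 79.1% in control_7d and 65.9% in RA_7d. The myeloid share of all cells moved the same way, at 61.1%, 57.9%, 35.2% and 19.4%. Lymphoid cells, 1.70% to 4.06% of the cells of a library, held 81.4% of *Cxcr6* UMIs, mesenchymal cells 10.4% and myeloid cells 5.02%. The cell filter kept 711 lymphoid cells where a looser filter kept 1447, so lymphoid shares and levels are those of the cells that passed it.

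**Figure D1:**
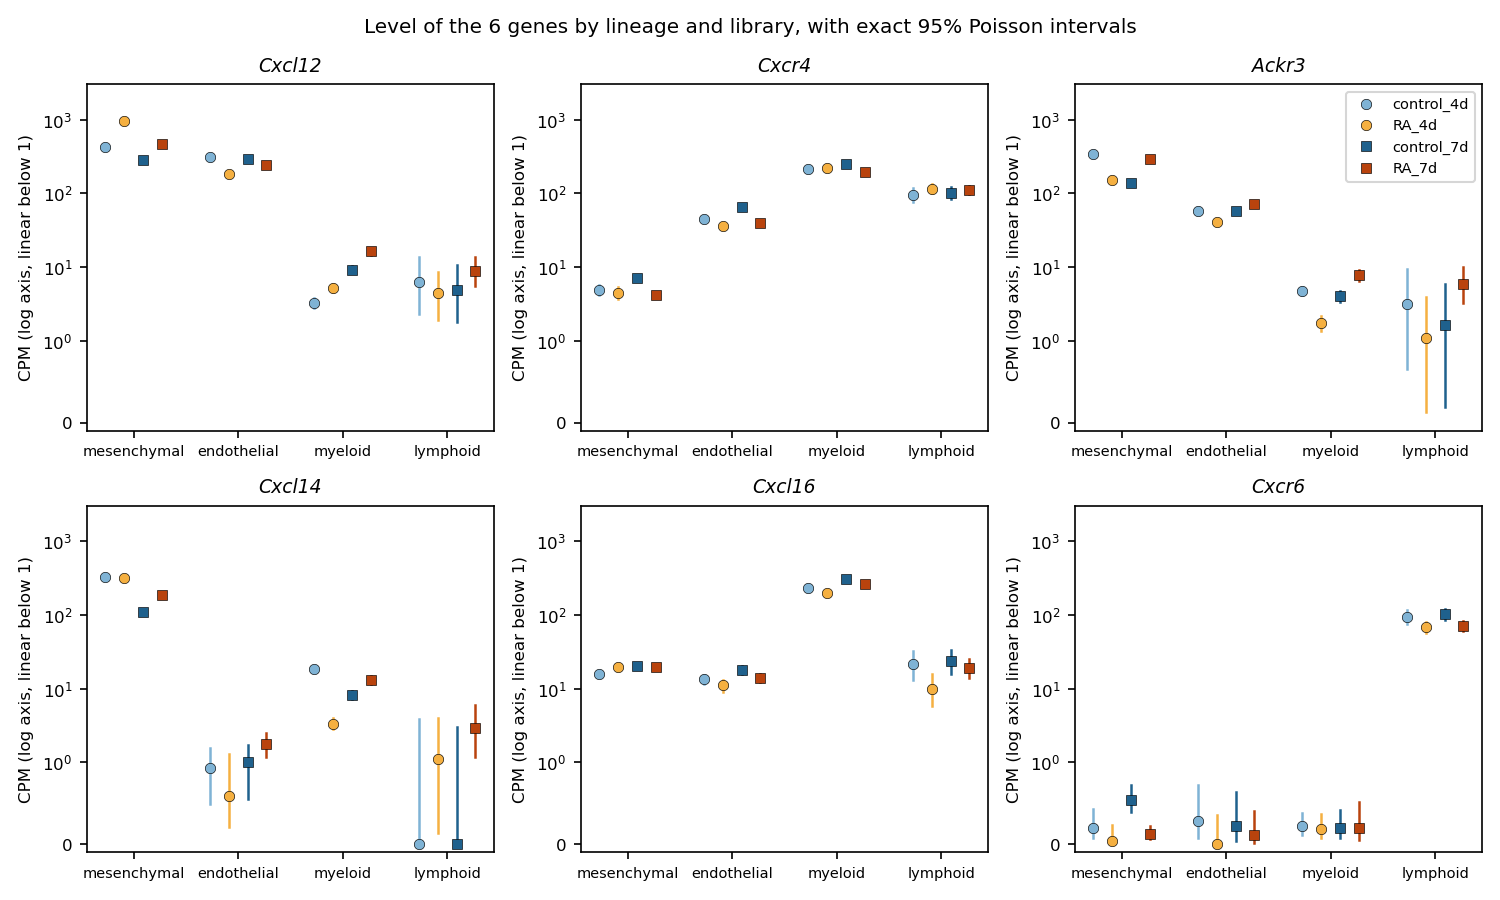
Level of each of the 6 genes (CPM, UMIs of the gene scaled to all UMIs of the lineage, on a log-type axis with 0 marked) in the mesenchymal, endothelial, myeloid and lymphoid cells of the 4 libraries, with exact 95% Poisson intervals as bars. Among these 4 lineages *Ackr3* and *Cxcl14* were highest in mesenchymal cells, *Cxcr4* and *Cxcl16* in myeloid cells and *Cxcr6* in lymphoid cells in each library. *Cxcl12* was highest in mesenchymal cells in 3 libraries and level with endothelial cells in control_7d (286.4 and 295.0 CPM).

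The share of cells with a UMI was taken after thinning each cell to 4000 UMIs, because the median mesenchymal cell held 25414 UMIs and the median lymphoid cell 7491. *Cxcl12* was found in 56.9% of thinned mesenchymal cells (86.8% unthinned) and 30.6% of endothelial cells (51.1%). The background share, in lymphoid cells, was 3.09% (5.63% unthinned), and the myeloid share over all libraries together, 2.13%, was below it. The order of the levels differed by library. Myeloid and lymphoid *Cxcl12* was at 3.24 and 6.37 CPM in control_4d, 5.20 and 4.41 in RA_4d, 9.28 and 4.87 in control_7d, and 16.6 and 8.86 in RA_7d. *Ackr3* was found in 40.3% of mesenchymal cells (66.0% unthinned) and 15.8% of endothelial cells (34.9%), against 1.83% (2.95%) in lymphoid cells.

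*Cxcl14* was found in 21.3% of mesenchymal cells (36.7% unthinned) and in 3.08% of myeloid cells (7.03%), against 0.281% (1.27%) in lymphoid cells. *Cxcl16* was found in 54.2% of myeloid cells (78.2% unthinned) and in 7.73% of mesenchymal cells (30.2%), against 3.66% (5.63%) in lymphoid cells. These shares put *Cxcl14* in myeloid cells and *Cxcl16* in mesenchymal cells above the background share, although at low levels. The level of *Cxcl16* did not do so in each library. It was 16.01 CPM in the mesenchymal cells of control_4d, 19.63 in RA_4d, 20.48 in control_7d and 19.74 in RA_7d. In lymphoid cells it was 21.24, 9.93, 23.53 and 18.98 CPM in the same order, higher than in mesenchymal cells in both control libraries. Share and level thus gave different answers for mesenchymal *Cxcl16*, and whether it was above background was not settled.

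*Cxcr4* was found in 54.5% of myeloid cells (83.8% unthinned), 29.5% of lymphoid cells (45.4%) and 10.5% of endothelial cells (23.8%). Its background share, in mesenchymal cells, was 1.94% (7.29% unthinned). *Cxcr6* was found in 15.1% of lymphoid cells (20.4% unthinned), against 0.0982% (0.382%) in mesenchymal cells.

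A gene was counted as past 2-fold where the log2 ratio of 2 libraries, with 1 CPM added to each level, was at least 1 in either direction, among genes for which the pair of libraries held 50 UMIs or more. In mesenchymal cells, RA against control, 2 of the 5 genes with enough UMIs were past 2-fold at 4 dpf, against 1.62% of all genes tested, and 1 of 6 at 7 dpf, against 2.63%. From 4 to 7 dpf, 2 of 6 were past 2-fold in control mice, against 3.33% of all genes, and 0 of 5 in RA mice, against 2.93%. *Cxcl12*, *Ackr3* and *Cxcl14* accounted for these calls.

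In endothelial cells 0 of 4 genes were past 2-fold in each of the 4 comparisons, where 0.972% (RA against control, 4 dpf), 1.73% (7 dpf), 1.9% (7 against 4 dpf, control) and 1.87% (7 against 4 dpf, RA) of all genes were. In myeloid cells 2 of 5 genes were past 2-fold between RA and control at 4 dpf, against 2.02% of all genes, and 0 of 5 at 7 dpf, against 1.71%. From 4 to 7 dpf, 2 of 5 were past 2-fold in control myeloid cells, against 1.8%, and 3 of 5 in RA myeloid cells, against 6.64%. These myeloid calls were of *Cxcl12*, *Ackr3* and *Cxcl14*, each at 18.6 CPM or less, and the thinned cell shares of the first pair over the lineage were within the background range.

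In lymphoid cells none of the 2 or 3 genes with enough UMIs was past 2-fold, where the share of all genes was 4.1% at 4 dpf and 1.67% at 7 dpf for RA against control, 3.58% over time in control mice and 2.72% over time in RA mice. The median log2 ratio of all genes lay between -0.03 and 0.08 in the 16 comparisons. With 6 genes chosen by name, a count of 1 or 2 describes those genes and says nothing of a set.

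*Cxcl12*, the ligand of CXCR4 and ACKR3, was higher in the mesenchymal cells of RA mice at both time points. Its mesenchymal level was 431.5 CPM in control_4d, 949.5 in RA_4d, 286.4 in control_7d and 474.4 in RA_7d. The RA level was 2.20 times the control level at 4 dpf (interval 2.15 to 2.25, log2 ratio 1.14) and 1.66 times at 7 dpf (1.63 to 1.68, log2 ratio 0.73). From 4 to 7 dpf the level fell by 0.59 on the log2 scale in control mice and by 1.00 in RA mice, the last just under the 2-fold limit. The share of thinned mesenchymal cells with a *Cxcl12* UMI had the same order, 55.3% in control_4d, 70.6% in RA_4d, 51.7% in control_7d and 58.6% in RA_7d.

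Among classes, the level of *Cxcl12* was highest in a cluster led by *Saa3* and *Mmp3*, with 1230 CPM in control_4d, 1950 in RA_4d, 497.1 in control_7d and 883.7 in RA_7d. Fibroblast-like cells, marked by *Abca8a* and *Gdf10*, had 622.3, 1243, 470.6 and 656.0 CPM in the same order. Within each of the 4 libraries the *Saa3* *Mmp3* cluster was above the fibroblast-like cells, although their ranges over the libraries overlapped. The range of the fibroblast-like cells also overlapped that of the next class in the order. Mural cells (pericytes and smooth muscle), at 127.1 to 204.7 CPM, were above the highest library of the class that followed them, an endothelial cluster led by *Aplnr* and *Emcn* at 55.5 to 106.0 CPM.

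The largest mesenchymal difference at 4 dpf was in fibroblast precursor-like cells, marked by *Pi16* and *Dpp4*. Their *Cxcl12* level was 202.1 CPM in control_4d, 1075 in RA_4d, 237.4 in control_7d and 329.2 in RA_7d. RA_4d stood apart from the other 3 libraries, at 5.32 times the control level (interval 5.0 to 5.67, log2 ratio 2.41). At 7 dpf the log2 ratio in this class was 0.47.

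The log2 ratio of *Cxcl12* at 4 dpf was 1.00 in fibroblast-like cells (just under the limit), 0.82 in cycling mesenchymal-like cells, 0.73 in committed progenitor-like cells and 0.66 in the *Saa3* *Mmp3* cluster. Tenocyte precursor-like cells, marked by *Scx* and *Tnmd*, went the other way, at -0.57. *Cxcl12* was thus higher in RA in 5 of 6 mesenchymal classes at 4 dpf and in 6 of 7 at 7 dpf. At 7 dpf chondrogenic-like cells had the largest ratio, 58.8 against 22.8 CPM (log2 ratio 1.33), and cycling cells went the other way at -0.12.

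**Figure D2:**
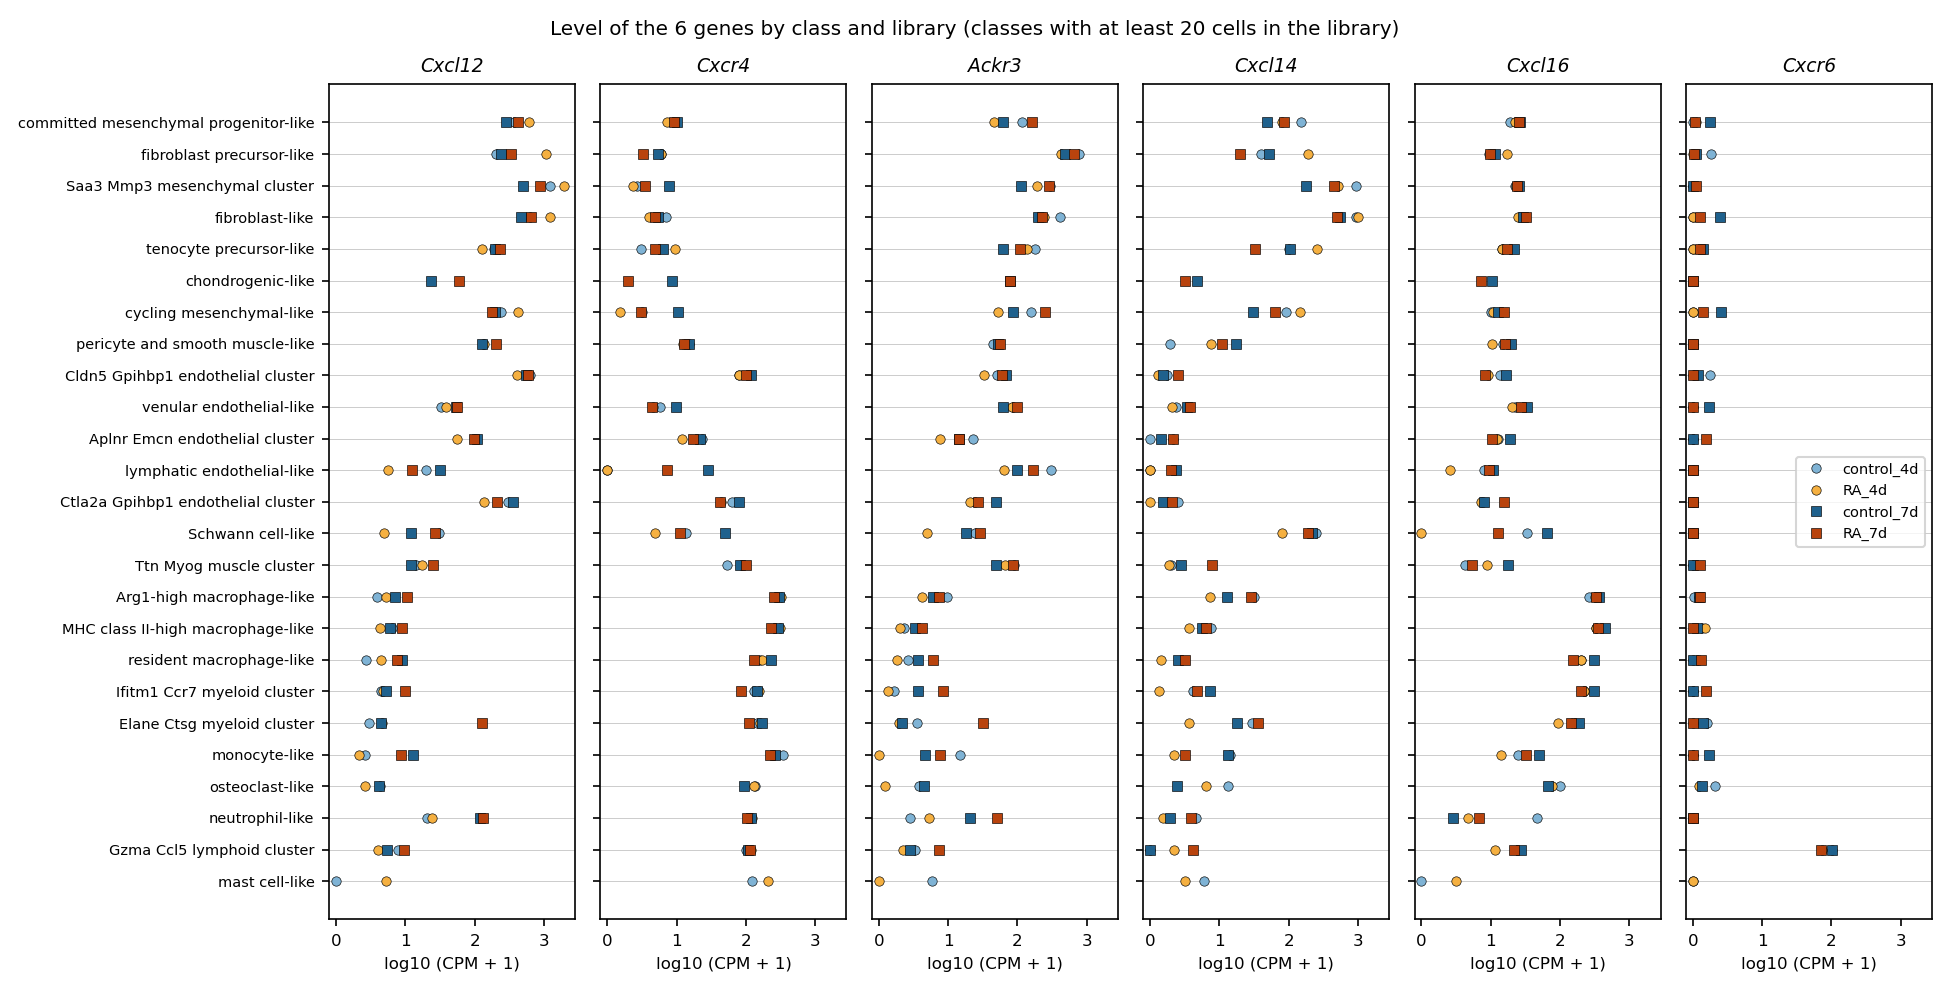
Level of the 6 genes as log10(CPM + 1) in each class with at least 20 cells in a library, by library. *Cxcl12* was spread over mesenchymal and endothelial classes. *Cxcl14* centred on fibroblast-like cells, the *Saa3* *Mmp3* cluster and Schwann cell-like cells, and *Ackr3* on fibroblast precursor-like cells. *Cxcr4* and *Cxcl16* centred on myeloid classes, and *Cxcr6* on 1 lymphoid cluster.

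The summed endothelial level of *Cxcl12* was lower in RA at both time points, while at 7 dpf its main cluster was not. The sum was 312.7 CPM in control_4d, 182.4 in RA_4d, 295.0 in control_7d and 242.4 in RA_7d, which is 0.583 times control at 4 dpf (interval 0.552 to 0.616) and 0.822 times at 7 dpf (0.787 to 0.858). The highest level was in 1 cluster, led by *Cldn5* and *Gpihbp1*, with 632.8 CPM in control_4d, 411.4 in RA_4d, 551.8 in control_7d and 590.7 in RA_7d. Venular cells, marked by *Selp* and *Ackr1*, were low throughout at 31.4 to 53.8 CPM. The mix of clusters moved with the sum at 7 dpf: the *Cldn5* cluster made up 38.8% of the endothelial cells of control_7d and 30.7% of those of RA_7d, a cluster led by *Ctla2a* and *Gpihbp1* 8.91% and 3.54%, and venular cells 24.9% and 35.1%. The part of the mix in the summed difference was not tested.

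At 4 dpf the log2 ratio of RA to control *Cxcl12* was -1.17 in the *Ctla2a* cluster, -0.86 in the *Aplnr* *Emcn* cluster, -0.62 in the *Cldn5* cluster and 0.28 in venular cells, whose interval held 1. At 7 dpf these were -0.76, -0.14, 0.10 and 0.04. Lymphatic endothelial-like cells, with too few UMIs at 4 dpf, had the largest difference at 7 dpf, 11.4 CPM in RA against 30.7 in control (log2 ratio -1.36, from 22 and 44 UMIs), and were the 1 class past 2-fold. The mesenchymal and endothelial log2 ratios at 4 dpf, 1.14 and -0.77, were of opposite sign.

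Myeloid *Cxcl12* was low, at 3.24 CPM in control_4d, 5.20 in RA_4d, 9.28 in control_7d and 16.6 in RA_7d. The 5 mesenchymal markers summed to 243.1, 123.8, 598.9 and 847.9 CPM in the same myeloid cells, none of them at 0, and their part in this order was not tested. In 1 class, neutrophil-like cells, the level was 19.7, 23.7, 118.1 and 131.7 CPM, from 27 to 148 cells per library, and in the *Elane* *Ctsg* cluster it was 124.9 CPM in the 31 cells of RA_7d against 2.01 to 3.55 in the other libraries. In the *Elane* *Ctsg* cluster few cells carried the level: 3 of the 31 cells of RA_7d had a *Cxcl12* UMI, 1 of them 65. Of the neutrophil-like cells 18.5% had a *Cxcl12* UMI in control_4d, 6.08% in RA_4d, 31.5% in control_7d and 37.5% in RA_7d. The most in a cell was 5, 74, 38 and 53 UMIs in the same order. The mesenchymal markers summed to 4174 CPM in those 31 cells, against 90.4 to 382.8 in the same cluster of the other libraries, and to 184.6, 94.2, 1206 and 877.9 CPM in the neutrophil-like cells. Without these classes the myeloid level was 3.23, 3.39, 5.95 and 8.34 CPM and the change over time in control mice was no longer past 2-fold (log2 ratio 0.72, against 1.28 with them).

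*Cxcl14* was concentrated in fewer classes than *Cxcl12*. Its mesenchymal level was 323.2 CPM in control_4d, 320.1 in RA_4d, 108.9 in control_7d and 184.3 in RA_7d. RA and control did not differ beyond counting error at 4 dpf (ratio 0.990, interval 0.961 to 1.02), where the log2 ratio took either sign over the processing alternatives (-0.29 to 0.43), and RA was 1.69 times control at 7 dpf (1.65 to 1.74). The level fell from 4 to 7 dpf in both, by 1.56 on the log2 scale in control mice and by 0.79 in RA mice.

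Fibroblast-like cells had 937.5 CPM of *Cxcl14* in control_4d, 992.9 in RA_4d, 540.0 in control_7d and 493.5 in RA_7d. The *Saa3* *Mmp3* cluster had 941.2, 516.6, 177.4 and 453.5 CPM, so its range overlapped that of the fibroblast-like cells. Outside the mesenchyme, Schwann cell-like cells, the myelinating glia of peripheral nerve, had 247.0, 78.5, 212.5 and 189.4 CPM, from 20 cells in RA_4d.

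The mesenchymal classes did not share 1 direction. The log2 ratio of *Cxcl14* was 2.25 at 4 dpf and -1.36 at 7 dpf in fibroblast precursor-like cells, and -0.86 and 1.35 in the *Saa3* *Mmp3* cluster. The share of *Saa3* *Mmp3* cells with a UMI, unthinned, did not have the order of the level at 4 dpf, being 80.2% in control and 86.4% in RA. Tenocyte precursor-like cells had 1.30 and -1.69, but 1 cell of RA_4d held 314 of the 480 UMIs behind the first value. At 7 dpf the shares of these cells with a UMI, unthinned, were close, 22.4% in control and 20.9% in RA, with up to 94 and 25 UMIs in a cell. Committed progenitor-like cells had -0.89 and 0.81, and of the 1324 UMIs of control_4d behind the first value 1 cell held 381 and another 205. The share of committed cells with a UMI at 4 dpf ran the other way, 29.1% and 38.4% in the 2 clusters of the class in control against 47.9% and 45.7% in RA. The 4 dpf ratios of the tenocyte precursor-like and committed cells thus rested largely on 1 or 2 cells, which intervals for counting error do not cover. Fibroblast-like cells, the class with the highest mean level, stayed close to 0 at both times (0.08 and -0.13). With the classes weighted equally the mesenchymal log2 ratio at 7 dpf was -0.07, against 0.75 from the summed cells.

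Myeloid *Cxcl14* was 18.6 CPM in control_4d, 3.33 in RA_4d, 8.14 in control_7d and 13.1 in RA_7d. It was lower in RA at 4 dpf, 0.179 times control (interval 0.149 to 0.214, log2 ratio -2.18), and higher at 7 dpf, 1.61 times (1.36 to 1.92, log2 ratio 0.63). At 4 dpf it was lower in 4 of 4 myeloid classes with enough UMIs, each past 2-fold, and at 7 dpf higher in 3 of 3.

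The *Arg1*-high macrophage-like class is made of 2 clusters, of which 1, led by *Mmp12*, *Cxcl3* and *Spp1*, had 43.8 CPM of *Cxcl14* and the other, led by *Pf4* and *Arg1*, 9.24 CPM. In the former, 16.8% of the 1318 unthinned cells had a *Cxcl14* UMI, with up to 41 UMIs in a cell, and the level was 58.9 CPM in control_4d, 14.8 in RA_4d, 31.8 in control_7d and 60.7 in RA_7d. *Cxcl12* was at 4.95 CPM in the same cluster and at no more than 3 UMIs in a cell. The summed mesenchymal markers were at 243.1 CPM in the myeloid cells of control_4d, 123.8 in RA_4d, 598.9 in control_7d and 847.9 in RA_7d. Like myeloid *Cxcl14*, they were lower in RA at 4 dpf and higher at 7 dpf, while control_4d was the highest library for *Cxcl14* only. The part of mesenchymal RNA in myeloid *Cxcl14* was not tested.

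*Cxcl16*, the membrane-bound ligand, was a transcript of macrophages and of some other myeloid classes. Its myeloid level was 228.1 CPM in control_4d, 198.4 in RA_4d, 310.1 in control_7d and 262.7 in RA_7d, which is 0.870 times control at 4 dpf (interval 0.846 to 0.894) and 0.847 times at 7 dpf (0.819 to 0.876). The neutrophil-like and *Elane* *Ctsg* classes made up 0.808% and 6.76% of the myeloid cells of control_4d and 6.22% and 10.1% of those of RA_4d. Without them the level was 242.0, 244.9, 331.2 and 276.6 CPM in the order above, no longer lower in RA at 4 dpf. The part of the class mix was not tested. MHC class II-high macrophage-like cells had 326.8, 326.4, 442.8 and 347.7 CPM and *Arg1*-high cells 263.1, 321.9, 359.3 and 333.6 CPM. A cluster led by *Ifitm1* and *Ccr7*, whose best marker score was that of dendritic cells, had 201.2 to 308.8 CPM, and the *Elane* *Ctsg* cluster 92.8 to 186.5 CPM. Monocyte-like cells, marked by *Ly6c2*, were low at 13 to 47.8 CPM, below the lowest library of the osteoclast-like cells at 66.9 CPM.

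At 7 dpf *Cxcl16* was lower in RA in 6 of 6 myeloid classes, with intervals below 1 in 5. Resident macrophage-like cells, marked by *Mrc1* and *Folr2*, had the largest difference, 152.2 against 312.4 CPM (log2 ratio -1.03), the 1 class past 2-fold. At 4 dpf 5 of 7 classes were lower and 2 higher, and over the processing alternatives the lineage log2 ratio at 4 dpf ran from -0.61 to 0.02. Mesenchymal cells had 16 to 20.5 CPM and endothelial cells 11.1 to 17.7 CPM.

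*Cxcr4*, the signalling receptor of CXCL12, was at 217.5 CPM in the myeloid cells of control_4d, 222.2 in RA_4d, 247.4 in control_7d and 197.6 in RA_7d. RA and control did not differ beyond counting error at 4 dpf (ratio 1.02, interval 0.995 to 1.05), and RA was 0.799 times control at 7 dpf (0.769 to 0.830). *Arg1*-high macrophage-like cells had 271.7, 315.1, 300.6 and 251.3 CPM and MHC class II-high cells 263.9, 312.4, 285.0 and 228.7 CPM. Monocyte-like cells, with 340.6, 240.5, 261.1 and 218.8 CPM, were among the highest classes for *Cxcr4*, while they were low for *Cxcl16*.

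By class, myeloid *Cxcr4* was higher in RA in 6 of 8 at 4 dpf and lower in 7 of 7 at 7 dpf, with 5 intervals below 1. None was past 2-fold, and the largest difference was in resident macrophage-like cells, 130.5 against 231.0 CPM at 7 dpf (log2 ratio -0.82). Lymphoid *Cxcr4* was at 95.6 CPM in control_4d, 116.4 in RA_4d, 101.4 in control_7d and 110.5 in RA_7d, and the intervals of both RA to control ratios held 1. In the muscle cells, a lineage not otherwise compared here, *Cxcr4* was at 53.0, 83.7, 80.8 and 98.6 CPM.

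Endothelial *Cxcr4* was 45.4 CPM in control_4d, 36.0 in RA_4d, 64.7 in control_7d and 40.0 in RA_7d. RA was 0.794 times control at 4 dpf (interval 0.696 to 0.904) and 0.618 times at 7 dpf (0.559 to 0.682). The *Cldn5* *Gpihbp1* cluster held it at 79.6, 77.7, 118.1 and 99.8 CPM, while in the other large class, the venular cells, 1.66% of thinned cells had a *Cxcr4* UMI, below the mesenchymal background share of 1.94%.

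*Ackr3*, the receptor that takes up CXCL12, changed direction between the time points in mesenchymal cells. Its level was 344.6 CPM in control_4d, 151.8 in RA_4d, 137.8 in control_7d and 295.8 in RA_7d. RA was 0.440 times control at 4 dpf (interval 0.424 to 0.457, log2 ratio -1.18) and 2.15 times at 7 dpf (2.10 to 2.19, log2 ratio 1.10). From 4 to 7 dpf the level fell by 1.32 on the log2 scale in control mice, and in RA mice the log2 ratio was 0.96. The share of thinned cells with a UMI had the same order, 52.5%, 31.3%, 28.5% and 48.3%.

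The direction was shared by the mesenchymal classes. *Ackr3* was lower in RA in 6 of 6 classes at 4 dpf, with log2 ratios of -1.62 to -0.40 and each interval below 1. At 7 dpf it was higher in 7 of 7, from 0.02 in chondrogenic-like cells to 1.54 in cycling mesenchymal-like cells, with 6 intervals above 1. Committed progenitor-like cells, marked by *Postn* and *Aspn*, had 117.0 CPM in control_4d, 44.6 in RA_4d, 61.3 in control_7d and 162.7 in RA_7d.

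**Figure D3:**
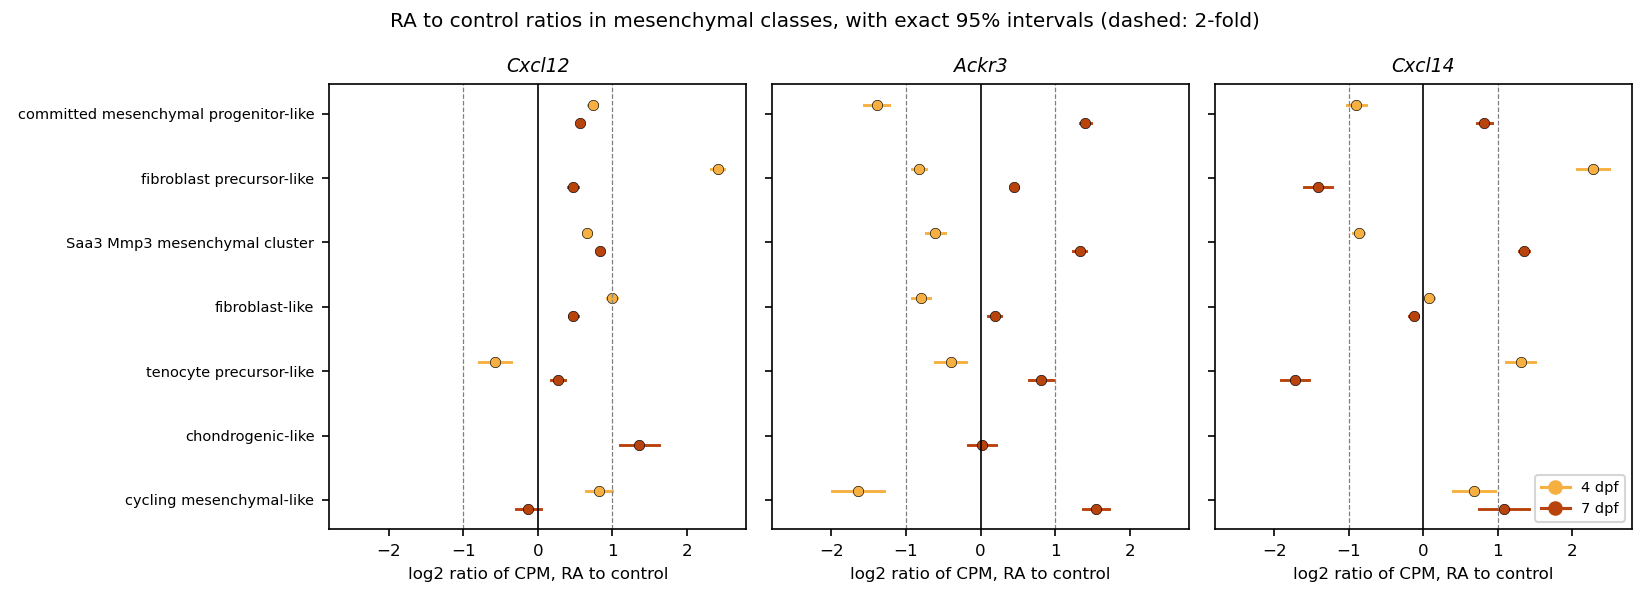
Log2 ratio of RA to control for *Cxcl12*, *Ackr3* and *Cxcl14* in each mesenchymal class at 4 and 7 dpf, with exact 95% intervals for counting error. *Ackr3* lay below 0 in 6 of 6 classes at 4 dpf and above 0 in 7 of 7 at 7 dpf, while *Cxcl14* had classes on both sides at each time.

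Fibroblast precursor-like cells had the most *Ackr3*, 763.1 CPM in control_4d, 430.3 in RA_4d, 478.4 in control_7d and 654.8 in RA_7d. Their lowest library was above the highest of the class that followed, the fibroblast-like cells at 200.3 to 415.4 CPM. After thinning, 82.7% of the 1602 fibroblast precursor-like cells had an *Ackr3* UMI, against 43.7% of fibroblast-like cells and 40.5% of the *Saa3* *Mmp3* cluster.

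The share of fibroblast precursor-like cells among mesenchymal cells moved with the *Ackr3* level: 22.3% in control_4d, 11.6% in RA_4d, 12.6% in control_7d and 21.3% in RA_7d. Without this class the mesenchymal *Ackr3* level was 215.1, 114.9, 88.0 and 192.7 CPM in the same order. RA against control then gave a log2 ratio of -0.90 at 4 dpf, no longer past 2-fold, and 1.12 at 7 dpf. With the classes weighted equally it was -0.93 and 0.82. The direction was the same in these settings, and the part of the class share in the summed difference was not tested further.

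**Figure D4:**
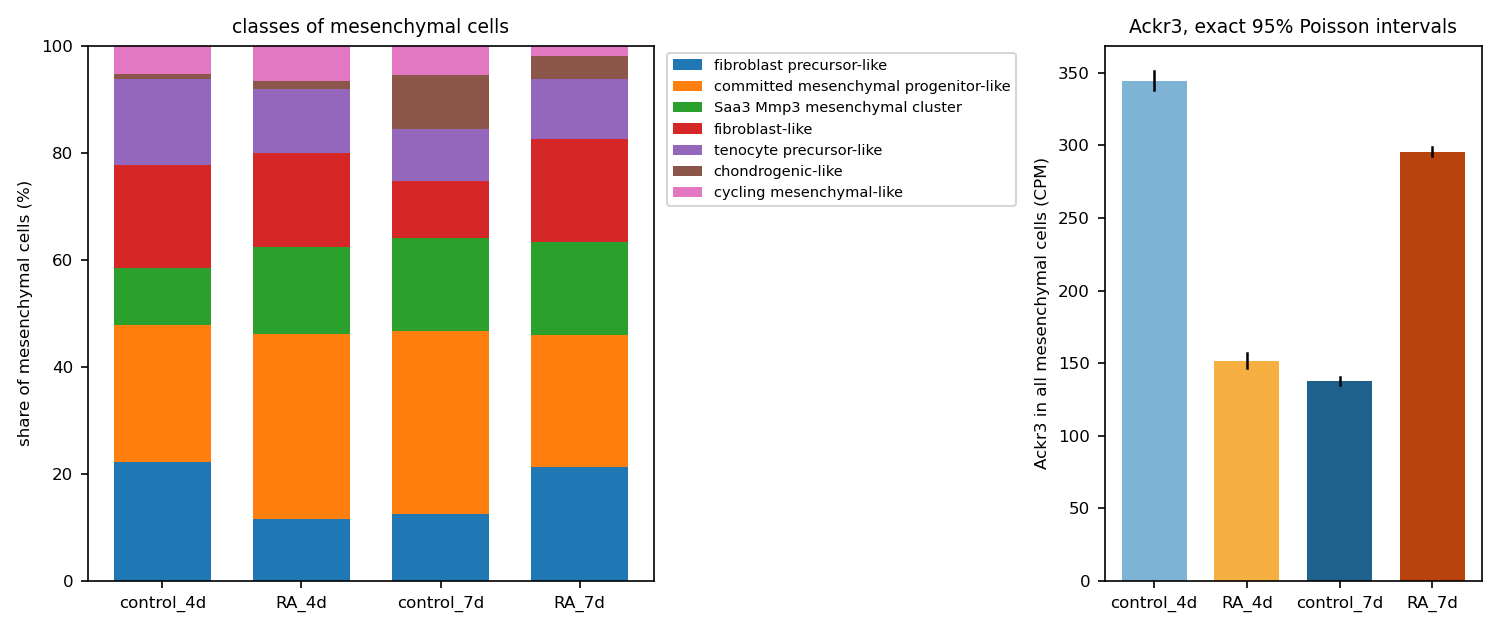
Share of each mesenchymal class among the mesenchymal cells of a library (percent) beside the *Ackr3* level of all mesenchymal cells (CPM). Control_4d and RA_7d had the larger shares of that class, 22.3% and 21.3%, and the higher *Ackr3* levels.

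Outside the mesenchyme, *Ackr3* was found in lymphatic endothelial-like cells, with 306.6 CPM in control_4d, 63.6 in RA_4d, 98.4 in control_7d and 169.2 in RA_7d, and in venular cells, with 85.3, 82.2, 60.9 and 99.1 CPM. The endothelial sum was 58.1, 41.5, 58.0 and 72.6 CPM, 0.714 times control at 4 dpf (interval 0.633 to 0.804) and 1.25 times at 7 dpf (1.15 to 1.37). *Ackr3* was lower in RA in 5 of 5 endothelial classes at 4 dpf, with 3 intervals below 1. At 7 dpf the classes did not share the direction of the sum: lymphatic and venular cells were higher (log2 ratios 0.78 and 0.69), the *Ctla2a* and *Cldn5* clusters lower (-0.86 and -0.17, the interval of the last holding 1) and the *Aplnr* *Emcn* cluster level at 0.00. Muscle cells had 87.9, 65.6, 48.0 and 84.2 CPM, lower in RA at 4 dpf and higher at 7 dpf as in the mesenchyme.

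Myeloid *Ackr3*, at 4.77 CPM in control_4d, 1.75 in RA_4d, 4.04 in control_7d and 7.72 in RA_7d, had the same order of RA and control as the mesenchymal level. In the thinned cells 0.673% to 2.82% of myeloid cells had an *Ackr3* UMI, against 0.625% to 3.09% of lymphoid cells, the background share. Whether the level over the lineage was above background was not tested. Single classes had more in some libraries. Neutrophil-like cells had 1.79, 4.31, 19.5 and 49.6 CPM of *Ackr3* in control_4d, RA_4d, control_7d and RA_7d, and 10 of the 32 cells of RA_7d had a UMI, with up to 14 in a cell. In the *Mmp12* *Cxcl3* cluster of *Arg1*-high cells the level was 14 CPM in control_4d, with up to 22 UMIs in a cell. Without the neutrophil-like and *Elane* *Ctsg* classes RA against control gave a myeloid log2 ratio of 0.42 at 7 dpf, instead of 0.79.

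*Cxcr6*, the receptor of CXCL16, was highest in 1 lymphoid cluster of 676 cells, led by the cytotoxic gene *Gzma* and by *Ccl5*, which held 470 of the 617 UMIs. Its level there was 101.3 CPM in control_4d, 71.7 in RA_4d, 102.1 in control_7d and 69.4 in RA_7d. The levels of the RA libraries were below those of the control libraries. Counting intervals over all lymphoid cells overlapped at 4 dpf, at 56.4 to 80.9 CPM in RA_4d and 74.9 to 115.1 in control_4d. At 7 dpf they did not, at 59.8 to 81.5 CPM in RA_7d and 84.4 to 120.8 in control_7d. Over all lymphoid cells RA was 0.726 times control at 4 dpf (interval 0.548 to 0.966) and 0.691 times at 7 dpf (0.544 to 0.878), from 88 to 166 UMIs per library. Over the processing alternatives this log2 ratio ran from -0.49 to -0.08 at 4 dpf and from -0.56 to -0.48 at 7 dpf. No other class with at least 20 cells in a library passed 1.56 CPM there. Of the 35 T cell-like cells, too few for a level by library, 20% had a *Cxcr6* UMI after thinning (7 cells), and of the *Gzma* *Ccl5* cells 14.8%.

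Within the *Cldn5* *Gpihbp1* endothelial cluster the ligand and its receptors differed in level between cells. The 1098 cells were divided by the number of angiogenic markers (*Esm1*, *Apln*, *Angpt2*, *Kcne3* and *Dll4*) with a UMI, a division chosen after the clusters had been seen. The 528 cells with at least 2 of these markers had 132 CPM of *Cxcr4*, 326 of *Cxcl12* and 67.2 of *Ackr3*, and the 570 others had 49.7, 853 and 38.0 CPM. In each of the 4 libraries the cells with the markers had more *Cxcr4* (108 to 150 CPM against 31.3 to 64.0) and less *Cxcl12* (238 to 379 CPM against 623 to 1088). The *Ctla2a* *Gpihbp1* cluster had the same order, with 76.9 against 25.9 CPM of *Cxcr4*, 214 against 370 of *Cxcl12* and 35.0 against 19.8 of *Ackr3*. *Ackr3* was lower with the markers in venular (24.8 against 94.8 CPM), *Aplnr* *Emcn* (8.44 against 17.9) and lymphatic cells (125 against 159). Lymphatic *Cxcl12* was higher with them (24.5 against 12.1 CPM).

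The number of markers is a range and not a type: 275 cells had exactly 2 of them and 387 had 1. Cells with at least 2 were also deeper, at a median of 19203.5 UMIs against 13981. By arterial markers (*Gja5*, *Gja4*, *Sema3g*, *Hey1*, *Efnb2* and *Fbln5*) the order of *Cxcl12* was the reverse, 682 CPM in the 791 cells with at least 2 of them against 189 in the others, although these cells were deeper too (17413 against 14734 UMIs). *Cxcr4* was at 102 against 77.1 CPM and *Ackr3* at 60.2 against 36.5 CPM by arterial markers.

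**Figure D5:**
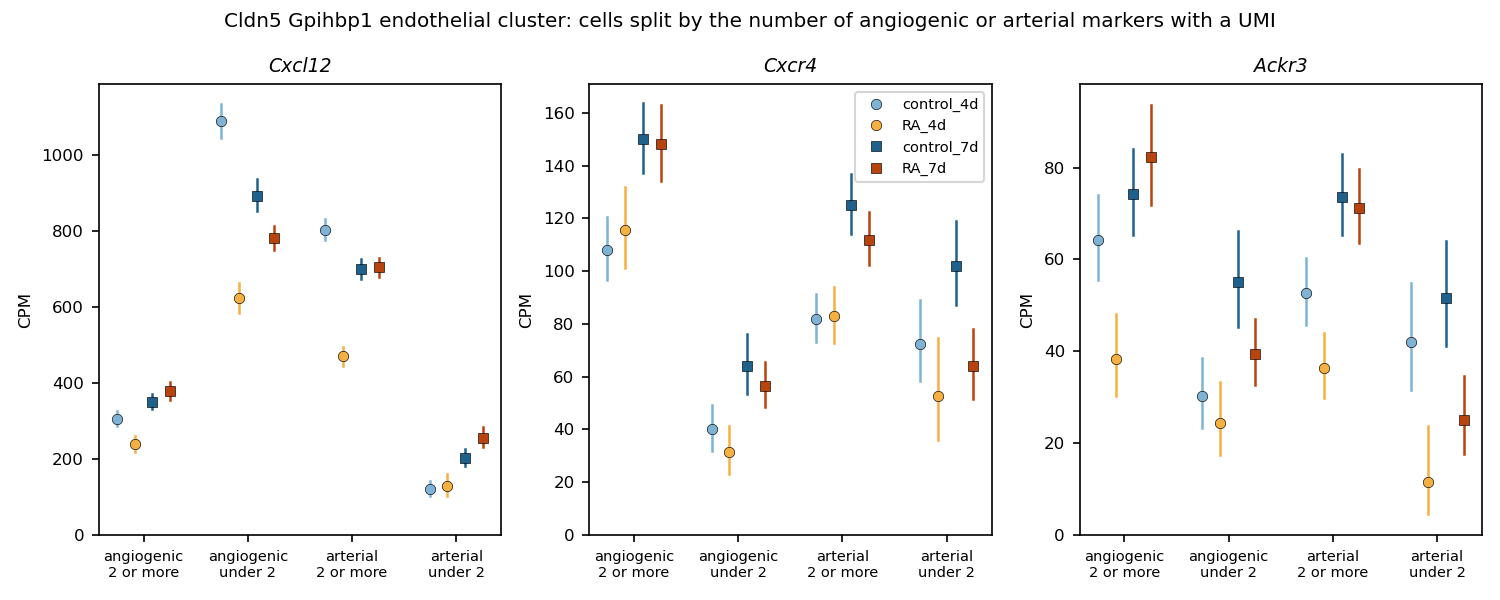
Level (CPM, linear axis) of *Cxcl12*, *Cxcr4* and *Ackr3* in cells of the *Cldn5* *Gpihbp1* endothelial cluster, by library, with exact 95% intervals. The cells were divided into those with at least 2, or fewer than 2, angiogenic or arterial markers. Cells with angiogenic markers had more *Cxcr4* and less *Cxcl12* in each of the 4 libraries, and cells with arterial markers had more *Cxcl12*.

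Some endothelial cells held UMIs of both *Cxcr4* and *Ackr3*. In the *Cldn5* cluster 22.3% of thinned cells had a *Cxcr4* UMI, 16.1% an *Ackr3* UMI and 5.92% both (65 cells). In venular cells the values were 1.66%, 18.5% and 0.391% (4 cells). *Cxcl12* and *Cxcr4* were found together in 10.8% of the *Cldn5* cluster. A joint share depends on how often each gene is found alone, so these values are descriptions and were not tested.

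In fibroblast precursor-like cells 49.8% of thinned cells had a *Cxcl12* UMI and 82.7% an *Ackr3* UMI, and in fibroblast-like cells 67.7% and 43.7%. Both were found together in 648 of 1602 thinned fibroblast precursor-like cells (40.5%, interval 38.0 to 42.9), in 31.8% of the *Saa3* *Mmp3* cluster, 29.7% of fibroblast-like cells and 15.2% of committed progenitor-like cells. *Cxcl12* and *Cxcl14* were found together in 563 of 1475 fibroblast-like cells (38.2%, interval 35.7 to 40.7) and 32.8% of the *Saa3* *Mmp3* cluster, but in 4.37% of fibroblast precursor-like cells. Among macrophages, *Cxcr4* and *Cxcl16* were found together in 41.4% of MHC class II-high and 41.3% of *Arg1*-high cells.

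The genes with the most similar profile to each of the 6 were ranked by Pearson's r of log2(CPM + 1) over 30 clusters, among 11254 genes. The clusters share the same 4 libraries, so r is a description. For *Cxcl12* these were *Nox4* (r = 0.94), *Pcdh19* (0.94) and *Fstl1* (0.92), and for *Ackr3* they were *Fhl1* (0.94), *Dpysl3* (0.94) and *Fstl1* (0.93). For *Cxcl14* they were *Lpar1* (0.85), *Col14a1* (0.85) and *Mmp3* (0.85).

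For *Cxcr4* the most similar profiles were those of *Ucp2* (0.93), *Lcp1* (0.92) and *Hcls1* (0.92), for *Cxcl16* those of *Ctsz* (0.91), *Ctsa* (0.91) and *Asah1* (0.90), and for *Cxcr6* those of *Csf2*, *Klra4* and *Gm19585* (each 0.98). Between the genes themselves r was 0.82 for *Cxcl12* and *Ackr3*, -0.78 for *Cxcl12* and *Cxcr4*, and -0.85 for *Cxcr4* and *Ackr3*. For *Cxcl16* and its receptor *Cxcr6* r was -0.29.

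The other genes of the pathway were taken as 5 lists with 44 genes in all. In mesenchymal cells the genes of chemokine ligand processing and of alternative ligands had 0 of 6 past 2-fold higher and 1 lower at 4 dpf. At 7 dpf 1 was higher and 1 lower (median log2 ratios 0.05 and -0.08). Of all genes, 1.62% were past 2-fold in either direction at 4 dpf and 2.63% at 7 dpf. *Dpp4*, a membrane protease that cuts CXCL12, was at 57.9 CPM in control_4d, 18.6 in RA_4d, 13.6 in control_7d and 57.2 in RA_7d (log2 ratios -1.59 and 2.00). It is also a marker of the fibroblast precursor-like class. *Mif*, another ligand of CXCR4, was at 395.6, 429.0, 494.0 and 224.7 CPM, with a log2 ratio of -1.13 at 7 dpf.

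Genes of chemokine receptor signalling (G protein subunits, receptor kinases, arrestins and their partners) had none past 2-fold in mesenchymal cells, 0 of 11 at 4 dpf and 0 of 13 at 7 dpf. Nor had they in myeloid cells, 0 of 13 at both. The shares of all genes were 1.62% and 2.63% in mesenchymal cells and 2.02% and 1.71% in myeloid cells. The marrow niche genes, such as *Kitl* and *Vcam1*, had 0 of 8 past 2-fold in mesenchymal cells at both times, with median log2 ratios of 0.33 and 0.26. In endothelial cells 1 of 7 niche genes was past 2-fold at 7 dpf, against 1.73% of all genes. It was the leptin receptor gene *Lepr*, at 58.9 CPM in RA_7d against 24.1 in control_7d.

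Of the other atypical chemokine receptors, 2 of 4 were past 2-fold lower in RA mesenchymal cells at 4 dpf and 2 of 4 higher at 7 dpf. Of all genes, 1.62% and 2.63% were past 2-fold in either direction at these times. The receptors were *Ackr1* and *Ackr2* in both cases (log2 ratios -1.76 and -1.08, then 1.02 and 1.06). They were named after their values were seen and were low, *Ackr1* at 2.42 to 14.3 CPM and *Ackr2* at 0.357 to 1.99 CPM. The list's median log2 ratio was -0.62 at 4 dpf and 0.66 at 7 dpf, against 0.04 and -0.03 over all genes.

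Of the other CXC chemokines and receptors in myeloid cells, 1 of 11 was past 2-fold higher and 2 lower in RA at 4 dpf. At 7 dpf 1 of 11 was lower. Of all genes in myeloid cells, 2.02% and 1.71% were past 2-fold at these times. By share of genes past 2-fold between RA and control, this list differed most at 7 dpf in endothelial and lymphoid cells. In endothelial cells 3 of 7 were lower in RA and none higher, where 1.73% of all genes were past 2-fold in either direction: *Cxcl2*, which draws in neutrophils, at 18.4 against 41.4 CPM, and the interferon-induced *Cxcl9* and *Cxcl10* at 5.64 against 21.3 CPM and 23.4 against 58.5 CPM. In mesenchymal cells 0 of 10 were past 2-fold at 7 dpf, and at 4 dpf *Cxcl5* was higher (281.6 against 131.6 CPM) and *Cxcl9* lower (8.88 against 33.7 CPM), both named after their values were seen. In lymphoid cells 3 of 4 were lower in RA at 7 dpf, where 1.67% of all genes were past 2-fold: *Cxcl2* at 81.4 against 195.5 CPM, *Cxcl10* at 18.1 against 115.2 CPM and the platelet factor gene *Pf4* at 48.5 against 124.1 CPM. Over the 4 libraries *Pf4* and *Cxcl2* were higher in myeloid cells, at 1784 and 408.1 CPM, than in lymphoid cells, at 115.0 and 105.2 CPM. The myeloid share of cells was also lower in RA_7d (19.4%) than in control_7d (35.2%), and the part of myeloid RNA in these lymphoid values was not tested.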

How the data were processed

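Single-cell RNA-seq libraries were prepared from fracture callus with the 10x Chromium 3′ kit (v3.1 chemistry). The authors deposited unscaled UMI counts by gene and barcode for each of the 4 libraries, from Cell Ranger 7.0.1 and mm10. The counts were checked to be whole and unscaled, and 3′ counting is not corrected for length, so levels were not compared between genes.

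The cell filter followed the study's methods: UMIs from 4000 to 50000, features from 2000 to 7000 and no more than 8% mitochondrial UMIs. It left 25479 of 34038 barcodes and 83405494 to 156567619 UMIs per library. Libraries were integrated in Seurat 5.3.0 (R 4.3.3) by canonical correlation analysis with 30 dimensions and 2000 variable genes, of which the 6 genes were no part, and clustered on 15 principal components at resolution 1. Marker scores against all other cells (mean log2 level, pseudocount 10 CPM) named a cluster that scored 1 or more, led the next name by 0.5 or more, had 3 or more markers detected and had a marker among its 10 leading genes. These limits were set once the clusters were known, and 22 of 31 clusters were named. Names are rebuilt from markers, so a class need not hold the cells of a like-named cluster in the study. Doublets were called with Scrublet in scanpy 1.11.5 (0.876% to 3.60% of a library). One cluster of 183 cells with over 50% doublets was set apart, and the other calls were used only in an alternative.

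UMIs were summed per lineage or class and library in Python 3.11.15 (numpy 2.4.6, scipy 1.17.1, pandas 2.3.3, plots with matplotlib 3.10.9). Levels are CPM with exact Poisson intervals, ratios have exact conditional intervals and shares of cells exact Clopper-Pearson intervals, all at 95%. Ratios by class needed at least 20 cells in both libraries. No test was made, because each condition has 1 library. The script for counts past 2-fold was tested on simulated data. The members and lists were chosen with earlier results of these data known. Named genes are the 6, the 3 with the most similar profile to each (at least 20 CPM in a cluster), class markers, and up to 3 genes per list and lineage past 2-fold between RA and control at 7 dpf with at least 20 CPM. Alternatives changed the cell filter, integration, resolution, doublets, scaling, pseudocount, class weights, count minimum and thinning. Gene positions are from GENCODE M21, and promoters from RefSeq.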

Additional observations from a re-analysis of the deposited data

Results flagged for a closer look

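With a flag limit of 1.5-fold, 13 log2 ratios were marked for opposite signs of the same contrast, which are not all the changes of sign. Endothelial *Ackr3*, at -0.48 and 0.32 for RA to control at 4 and 7 dpf, was not marked. None of these differences was tested, because each condition has 1 library. *Ackr3* in mesenchymal cells had a log2 ratio of RA to control of -1.18 at 4 dpf and 1.10 at 7 dpf, and from 4 to 7 dpf it was -1.32 in control mice and 0.96 in RA mice, so that each of the 4 libraries takes part in both contrasts. *Ackr3* in myeloid cells, with shares of cells over the lineage within the lymphoid background range, was at -1.07 and 0.79 for RA to control.

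*Cxcl14* in myeloid cells had a log2 ratio of RA to control of -2.18 at 4 dpf and 0.63 at 7 dpf, and over time of -1.10 in control mice and 1.71 in RA mice. At 4 dpf the log2 ratio of RA to control for *Cxcl12* was 1.14 in mesenchymal cells and 0.55 in myeloid cells, against -0.77 in endothelial cells. The difference was not tested in any of these cases.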

How the results depend on the processing

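No paired analysis was possible because each condition has 1 library and no libraries share a replicate. Of the counts of the 6 genes past 2-fold in the 16 comparisons, all 16 were the same with TMM scaling and at resolution 0.5. With the classes weighted equally the count was 0 in mesenchymal cells for RA against control at both times (2 at 4 dpf and 1 at 7 dpf as reported), 1 over time in RA mesenchymal and in control endothelial cells (0 as reported), and 1 in myeloid cells at 4 dpf, at 7 dpf and over time in control mice (2, 0 and 2 as reported). The looser cell filter gave 1 over time in control mesenchymal (2), RA mesenchymal (0) and RA endothelial cells (0), and 1 in myeloid cells at 4 dpf (2). Without doublets 2 genes were past 2-fold in mesenchymal cells at 7 dpf (1), since *Cxcr4* reached -1.01, and without integration 1 was over time in RA mesenchymal cells (0). With a pseudocount of 10 CPM the myeloid counts were 1 at 4 dpf and 0 over time in control and in RA mice (2, 2 and 3). Among alternatives added after seeing the data, leaving out the fibroblast precursor-like class gave 0 in mesenchymal cells at 4 dpf (2), and leaving out the neutrophil-like and *Elane* *Ctsg* classes gave 1 in myeloid cells over time in control mice (2). The cause was not tested.

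Over these alternatives the mesenchymal log2 ratio of RA to control ran from -1.25 to -0.90 (4 dpf) and 0.82 to 1.14 (7 dpf) for *Ackr3*, from 0.84 to 1.15 and 0.55 to 0.81 for *Cxcl12*, and from -0.29 to 0.43 and -0.07 to 0.97 for *Cxcl14*, whose sign turned in 3 settings at 4 dpf and 1 at 7 dpf. The leading lineage's share of UMIs ran from 82.2% to 85.7% for *Cxcl12* and from 77.6% to 82.8% for *Cxcr6*, but with the looser cell filter 19 of 24 shares moved beyond their counting intervals. Small shares moved by more: mesenchymal *Cxcr4* was 1.76% without doublets (3.17% as reported), and endothelial *Cxcl14* 0.303% with the looser filter (0.132%). The main limits are the 1 library per condition, so that no difference can be set against the spread between animals, the names rebuilt from markers, and the low depth of lymphoid cells. Free RNA was looked at only indirectly. The share of cells with a UMI, or the level, in a lineage that should lack the gene was set beside the values, as were levels of genes of other lineages.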
